A study of Mus musculus with 7 samples.

Results

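The Notch pathway was followed here through 10 of its genes, the receptors Notch1, Notch2 and Notch3, the ligands Dll1, Jag1 and Jag2, the nuclear mediator Rbpj and the target genes Hes1, Hes6 and Hey1. They were taken by name, and every probe set of the arrays annotated to 1 of them and to no other gene was used, which gave 17 of 22690 probe sets and 10 of 12393 named genes. The cells were MN9D, a mouse hybrid line derived from midbrain neurons and a neuroblastoma that makes dopamine, and total RNA was profiled on mouse 430A 2.0 arrays from Affymetrix. In 4 arrays the cells were labelled as overexpressing hemoglobin's alpha and beta chains, and in 3 arrays as carrying an empty vector, with no other treatment or time named in the labels. The design text asks what globin expression does to these cells. The sources used here do not give the vector's promoter or say whether the cells were 1 clone or a pool. Nor do they say whether replicates were separate cultures, and every p-value therefore rests on array-to-array spread that may be technical.

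Of the 5 probe sets for adult alpha-globin, 3 rose by 35.8-fold to 142-fold and the others did not pass. Of 3 for adult beta-globin 1 rose, a dim one, by 1.26-fold. The beta part of the label was thus not borne out by its probe sets, and the arrays are called globin-labelled. Some alpha probe sets stayed flat in the same arrays, so flat beta probe sets do not show that the beta chain was absent. Array medians lay between 8.90 and 8.94 on the log2 scale, and arrays correlated at 0.9985 or above within a group and at 0.9903 to 0.9917 across groups. On the second principal component, which held 5.96% of the variance, array 1 of the empty vector (9.20) and array 4 of the globin-labelled group (8.66) lay at 1 end, and arrays 3 (-6.85) and 1 (-7.86) of these groups at the other. The dopaminergic markers Th and Ddc had mean log2 signals of 11.78 and 10.07 in the empty vector arrays, while the dopamine transporter gene Slc6a3, at 6.33, lay in the dimmest 25% of probe sets. Of 28 measured markers of astrocytes, the oligodendrocyte lineage, fibroblasts, endothelium, macrophages and erythroid cells, Mbp, Kdr and Cd68 fell and the other 25 did not pass the test. Over all genes 40.7% passed, 20.6% higher and 20.1% lower. In each of these 6 lists between 2 and 4 markers lay in the dimmest 25% of probe sets, which limits what they can show. The log2 of a list's summed signal was lower without overlap in the globin-labelled arrays for macrophage and oligodendrocyte lineage markers. For macrophage markers it was 8.65 to 8.89, against 9.12 to 9.20 in the empty vector arrays. For oligodendrocyte lineage markers it was 9.26 to 9.31 against 9.53 to 9.60. It overlapped for the other 4 lists. Bright genes weigh most in such a sum, and Cd68 was the only macrophage marker and Mbp the only oligodendrocyte lineage marker that passed. Of 5 dopaminergic markers 2 fell, Th and Ddc, where 40.7% of all genes passed and 20.1% of all genes were lower. Slc6a3, Nr4a2 and Pitx3 did not pass. The log2 of the summed signal of the 5, of which Th was the brightest, was lower without overlap (11.77 to 11.84 against 12.22 to 12.38). Of 5 general neuronal markers 2 rose and 2 fell. The log2 of their summed signal, of which Prph was the brightest, was higher (14.36 to 14.48 against 14.11 to 14.29). Control probe sets at both ends of a transcript measure RNA integrity and labelling, and the 3' end less the 5' end ran from -0.39 to -0.23 in the empty vector arrays and from -0.08 to 0.05 in the globin-labelled arrays for pyruvate carboxylase (two-sided exact permutation p = 0.029). It differed by 0.10 at most between the group means for 4 other transcripts. The part of these differences in the results below was not tested.

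Notch receptors sit in the membrane and are activated by ligands of the Delta and Jagged families on a neighbouring cell. Cleavage by ADAM proteases and then by gamma-secretase frees the intracellular domain, which enters the nucleus, binds the DNA-binding protein RBPJ and recruits Mastermind coactivators. Classic targets are the HES and HEY genes, whose products are basic helix-loop-helix repressors that hold down proneural genes such as the neurogenins. In the developing brain this signalling keeps progenitors from differentiating into neurons, and HES6 is the exception in its family in that it counters HES1 and favours differentiation.

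Stretches of 250 bases before a transcript start were taken from RefSeq for build GRCm38.p6, and 8 of the 10 members matched, all but Hes1 and Hey1, with 11 windows. They were searched on both strands for TGGGAA, the core of the RBPJ site, and for CACGTG and CACGCG, sites bound by HES and HEY proteins. CACGTG reads alike on both strands, and no matches to different motifs overlapped. The windows below are those of the only member with the RBPJ core, the members with the largest changes among receptors and ligands, and a receptor and a ligand that did not pass the test and hold CACGCG. Capitals mark matches to the 3 motifs on either strand.
Rbpj, chr5:53590096-53590345, plus strand: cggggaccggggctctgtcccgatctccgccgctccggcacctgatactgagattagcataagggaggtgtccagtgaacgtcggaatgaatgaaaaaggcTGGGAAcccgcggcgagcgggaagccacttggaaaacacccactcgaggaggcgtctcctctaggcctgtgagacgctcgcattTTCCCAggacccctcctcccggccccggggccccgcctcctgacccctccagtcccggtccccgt
Notch1, chr2:26503823-26504072, minus strand: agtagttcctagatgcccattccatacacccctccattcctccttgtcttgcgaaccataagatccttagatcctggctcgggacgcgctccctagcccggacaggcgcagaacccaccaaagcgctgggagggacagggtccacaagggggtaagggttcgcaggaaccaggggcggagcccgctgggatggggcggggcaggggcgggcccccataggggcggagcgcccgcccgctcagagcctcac
Jag2, chr12:112929496-112929745, minus strand: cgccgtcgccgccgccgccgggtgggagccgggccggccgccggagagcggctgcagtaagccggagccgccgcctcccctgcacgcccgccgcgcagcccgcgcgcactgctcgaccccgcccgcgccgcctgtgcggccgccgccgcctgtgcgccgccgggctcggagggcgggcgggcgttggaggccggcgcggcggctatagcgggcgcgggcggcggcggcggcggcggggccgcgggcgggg
Notch2, chr3:98013288-98013537, plus strand: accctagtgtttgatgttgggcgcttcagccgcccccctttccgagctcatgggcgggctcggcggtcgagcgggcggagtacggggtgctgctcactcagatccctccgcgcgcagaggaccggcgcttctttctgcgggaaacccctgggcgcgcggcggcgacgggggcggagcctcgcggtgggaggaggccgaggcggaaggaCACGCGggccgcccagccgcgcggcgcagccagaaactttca
Jag1, chr2:137116521-137116770, minus strand: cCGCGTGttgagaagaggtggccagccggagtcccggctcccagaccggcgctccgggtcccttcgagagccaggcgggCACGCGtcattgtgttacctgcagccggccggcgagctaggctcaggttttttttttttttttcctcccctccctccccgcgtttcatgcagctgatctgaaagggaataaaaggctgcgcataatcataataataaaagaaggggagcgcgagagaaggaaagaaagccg
The Notch1, Notch2 and Jag1 windows lay outside the annotated gene, directly before it, and those of Rbpj and Jag2 lay within the annotated span of their own gene. TGGGAA was found in 2 of the 11 windows, both of Rbpj, which overlap and share a match, at 149 and 65 bases before the start in the window shown. The same letters occur in 21.6% of all 32851 windows of this length. CACGCG was found in 3 of the 11 windows, those of Notch2, Jag1 and 1 of the 2 of Dll1, and in 7.62% of all windows. CACGTG was found in 0 of the 11 and in 6.02% of all. Guanine and cytosine made up 56% to 87.2% of the bases in the members' windows, beside a median of 52.4% over all windows.

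Some receptor and target genes and 1 ligand gene of the pathway were higher in the globin-labelled arrays. The gene of the shared nuclear mediator was lower on 1 of its 2 probe sets. Of the 17 probe sets 8 rose and 1 fell at a limma adjusted p under 0.05. Over all 22626 tested probe sets 39.5% passed, 18.3% higher and 21.2% lower (with arrays scaled to their 75th percentile 5276 were higher and 4099 lower, against 4131 and 4800). The members' share was thus above that of all probe sets, but no test was made of it, the genes having been proposed with earlier results known. With each gene taken by its probe set of highest mean signal, Notch1, Notch3, Jag2, Hes1 and Hey1 rose and Rbpj fell, beside 40.7% of 12393 genes that passed, 20.6% higher and 20.1% lower. At 9 of the 17 probe sets, the same ones that passed, the 2 groups did not overlap, beside 43.5% of all probe sets (6 of 10 genes, beside 45.7%). In RNA from whole cultures, fewer cells of a kind and less RNA per cell cannot be told apart. The median change of the 10 genes was 0.19 on the log2 scale and its median size without sign 0.28, beside 0.02 and 0.12 over all genes. Changes below are log2 differences, globin-labelled minus empty vector, with limma's standard error after ±, and signal is compressed on such arrays, so folds are of signal and not of transcript number.

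**Figure D1:**
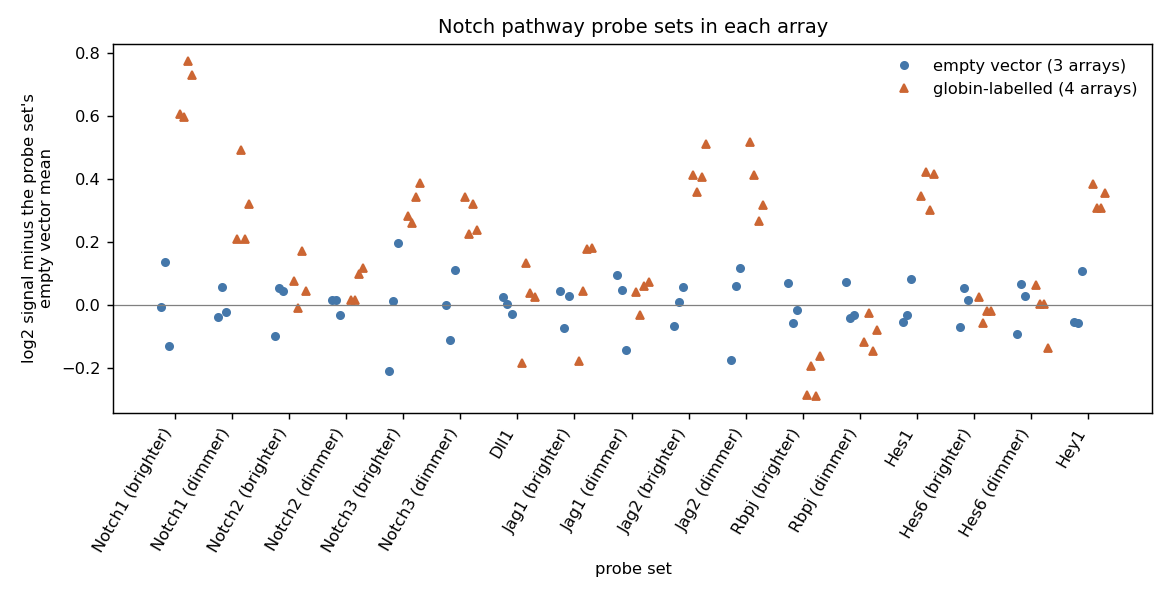
Log2 signal of each of the 17 probe sets in the 3 empty vector arrays (circles) and the 4 globin-labelled arrays (triangles), with the probe set's empty vector mean set to 0. For Notch1, Notch3, Jag2, Hes1 and Hey1 every triangle lies above every circle, and for the brighter Rbpj probe set every triangle lies below.

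Among the receptors Notch1 showed, on its brighter probe set, the largest change of any member. Its other probe set and both of Notch3 rose by like, smaller amounts, and Notch2 did not pass on either. Notch1 encodes the receptor best known from neural progenitors. Its brighter probe set read 7.65, 7.79 and 7.52 in empty vector arrays 1 to 3 and 8.26, 8.25, 8.43 and 8.39 in globin-labelled arrays 1 to 4. The lowest globin-labelled array lay 0.46 above the highest empty vector array. The rise was 0.68 ± 0.07, or 1.60-fold (limma adjusted p = 7.98e-05), a size greater than that of 96.4% of all probe sets. On the other Notch1 probe set the empty vector arrays read 7.61, 7.71 and 7.63 and the globin-labelled arrays 7.86, 8.14, 7.86 and 7.97, again without overlap. That rise was 0.31 ± 0.07, or 1.24-fold (limma adjusted p = 0.00699), and leaving out array 1 of the empty vector and array 4 of the globin-labelled group together gave 0.28, which did not pass (limma adjusted p = 0.0704). The probe sets of Notch1 thus moved the same way by amounts that differed by 0.37.

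Notch3, a receptor known above all from the smooth muscle of vessels, gave dim signals, with both of its probe sets in the dimmest 25% of all. The brighter, which targets more than 1 transcript by its suffix, read 6.25, 6.47 and 6.66 in the empty vector arrays and 6.74, 6.72, 6.80 and 6.84 in the globin-labelled arrays. Empty vector arrays were the more scattered, with an SD of 0.20 (n = 3) against 0.06 (n = 4), and the groups were parted by 0.06. The change of 0.32 ± 0.08 passed (limma adjusted p = 0.0147), but was 0.19 and missed the threshold once array 1 of the empty vector and array 4 of the globin-labelled group were dropped (limma adjusted p = 0.0746), nor by the plain two-sample test (adjusted p = 0.0763). Its other probe set read 6.04, 5.93 and 6.15 against 6.38, 6.26, 6.36 and 6.27, a rise of 0.28 ± 0.06 (limma adjusted p = 0.00413).

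Notch2, a receptor expressed in many tissues, overlapped between the groups on both probe sets. The brighter read 8.96, 9.11 and 9.10 in the empty vector arrays and 9.13, 9.05, 9.23 and 9.10 in the globin-labelled arrays. Its difference was 0.07 ± 0.06, with a 95% interval from -0.06 to 0.20 (limma adjusted p = 0.365). On the other the difference was 0.06 ± 0.04, from -0.04 to 0.16 (limma adjusted p = 0.293), so that changes of the size seen for Notch1 and Notch3 lay outside both intervals.

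Of the ligands only Jag2 passed, and it did so on both of its probe sets. Jag2 encodes a membrane ligand of the Jagged family. Its brighter probe set read 9.37, 9.45 and 9.50 in the empty vector arrays and 9.85, 9.80, 9.85 and 9.95 in the globin-labelled arrays, 0.30 apart at the nearest. The rise was 0.42 ± 0.05, or 1.34-fold (limma adjusted p = 1.65e-04). The other probe set read 9.20, 9.44 and 9.50 against 9.90, 9.79, 9.65 and 9.70 and rose by 0.38 ± 0.08 (limma adjusted p = 0.00505), so that the pair moved by like amounts.

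Jag1, the other Jagged ligand, gave dim signals that overlapped between the groups. Its brighter probe set read 6.61, 6.49 and 6.59 in the empty vector arrays and 6.39, 6.61, 6.74 and 6.74 in the globin-labelled arrays, and globin-labelled array 1 was the lowest of all 7. The difference was 0.06 ± 0.08, with a 95% interval from -0.13 to 0.25 (limma adjusted p = 0.640), and on the dimmer probe set it was 0.04 ± 0.06 (limma adjusted p = 0.676). Dll1, the Delta ligand that newborn neurons present to their neighbours, read 8.63, 8.61 and 8.58 against 8.42, 8.74, 8.64 and 8.63. Its globin-labelled arrays lay on both sides of the empty vector arrays, with an SD of 0.13 (n = 4) against 0.03 (n = 3), and the difference was 0.003 ± 0.068, from -0.15 to 0.16 (limma adjusted p = 0.975).

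Rbpj, the DNA-binding partner through which all Notch receptors act on their targets, was lower on the brighter of its probe sets. That probe set read 12.50, 12.38 and 12.42 in the empty vector arrays and 12.15, 12.24, 12.14 and 12.27 in the globin-labelled arrays, with every globin-labelled array below every empty vector array. Its signal fell by 0.23 on the log2 scale, with a standard error of 0.05 (limma adjusted p = 0.00505), a 1.18-fold difference. The other probe set read 11.38, 11.27 and 11.28 against 11.19, 11.28, 11.16 and 11.23. Its difference of -0.09 ± 0.05 had a 95% interval from -0.20 to 0.01 and did not pass (limma adjusted p = 0.155), and the groups overlapped. Rbpj is the member whose window held the RBPJ core printed above.

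Among the targets Hes1 and Hey1 rose by like amounts, and Hes6 did not pass. Hes1, the repressor that maintains neural progenitors, read 8.26, 8.28 and 8.40 in the empty vector arrays and 8.66, 8.74, 8.62 and 8.73 in the globin-labelled arrays. It rose by 0.37 ± 0.05, or 1.29-fold (limma adjusted p = 3.44e-04), and the groups stood 0.22 apart. Hey1, a related repressor known from vessel and heart development, read 9.43, 9.43 and 9.59 against 9.87, 9.79, 9.79 and 9.84. It rose by 0.34 ± 0.05, or 1.26-fold (limma adjusted p = 6.69e-04), with the groups 0.20 apart.

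Hes6, the family member that counters HES1, read 9.21, 9.33 and 9.30 in the empty vector arrays and 9.30, 9.22, 9.26 and 9.26 in the globin-labelled arrays on its brighter probe set. All globin-labelled arrays fell inside the range of the empty vector arrays, and the difference was -0.02 ± 0.04, from -0.12 to 0.08 (limma adjusted p = 0.782). The other probe set also differed by -0.02, with a standard error of 0.06 (limma adjusted p = 0.857), and both signs turned under scaling to the 75th percentile. The brighter probe set's suffix marks probes that may also bind other transcripts.

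**Figure D2:**
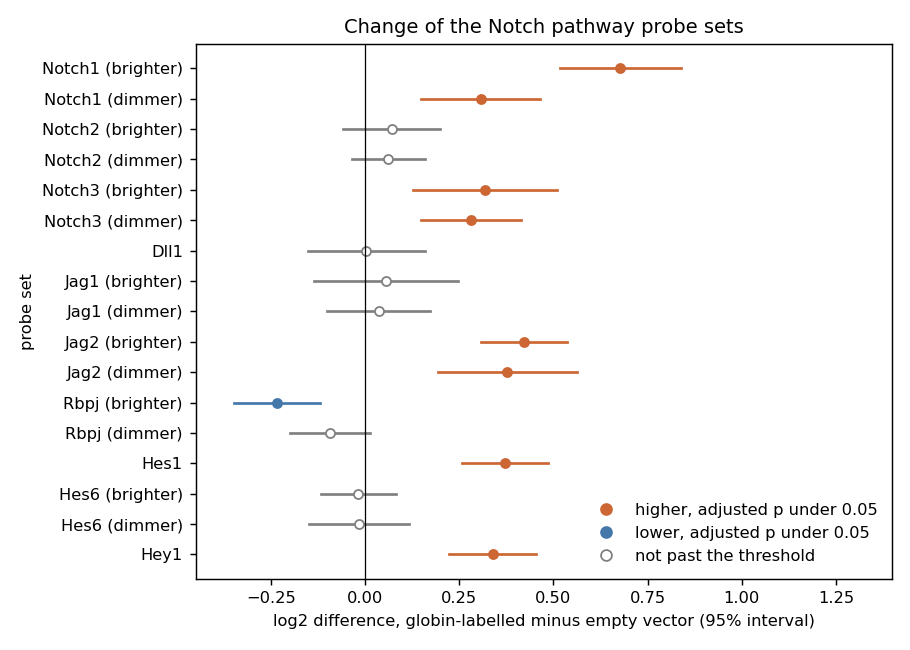
Log2 difference of each of the 17 probe sets, globin-labelled minus empty vector, with its 95% interval. The 8 filled points to the right of 0 are those of Notch1, Notch3, Jag2, Hes1 and Hey1, the filled point to the left is Rbpj, and the 8 open points did not pass.

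In 6 of 9 pairs members of one family changed by different amounts, as tested on the difference between their brightest probe sets within each array. In this test 9 pairs were compared with two-sided exact permutation over the 35 splits of the arrays, for which 0.029 is the smallest p. The p-values were adjusted over the 9. All 6 stood at the smallest p, and pairs share genes, so these calls depend on each other. Had fewer pairs stood there, none would have passed after adjustment. Notch1 rose by 0.61 more than Notch2 and by 0.36 more than Notch3, and Notch3 changed by 0.25 more than Notch2, each at the smallest exact p of 0.029 (adjusted 0.0429). The contrast of Notch1 with Notch3 rests on the brighter Notch1 probe set: the other rose by 0.31, no more than the 0.32 of Notch3, and the probe sets of Notch1 differed in their change by 0.37, as much as this pair. Against Notch2 the size of the contrast also depends on the Notch1 probe set, as the other rose by 0.31 and Notch2 changed by 0.07. Jag2 rose by 0.37 more than Jag1 (exact permutation p = 0.029, adjusted 0.0429). Jag2 rose by 0.42 more than Dll1, and although the groups did not overlap in that difference either, another split of the arrays gave one as large, so that it did not pass (exact permutation p = 0.0571, adjusted 0.0735). Jag1 and Dll1 differed by 0.05 in their change (exact permutation p = 0.571, adjusted 0.571). Hes1 rose by 0.39 more than Hes6 and Hey1 by 0.36 more than Hes6, both at the exact p of 0.029 (adjusted 0.0429). Hes1 and Hey1 differed in their change by 0.03, and their within-array difference ran from -1.19 to -1.14 in the empty vector arrays and from -1.20 to -1.05 in the globin-labelled arrays (exact permutation p = 0.514, adjusted 0.571). Probe sets respond unequally to a like change in RNA, so these are differences in signal.

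**Figure D3:**
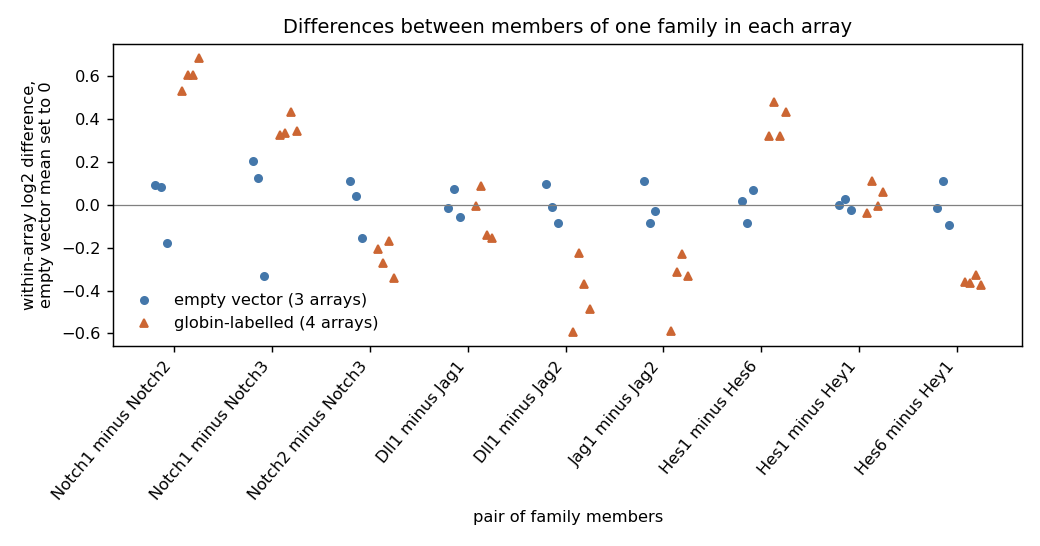
Log2 signal of 1 family member minus another within each array, for 9 pairs, with the mean of the 3 empty vector arrays set to 0 (circles empty vector, triangles globin-labelled). In the 6 pairs that passed the exact test and in Dll1 with Jag2 all 4 triangles lie on 1 side of all circles, and in the pairs Dll1 with Jag1 and Hes1 with Hey1 they mix.

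Other genes of the pathway moved both ways. Of 67 listed genes 57 were measured, and 17 rose and 10 fell, with a median of 0.04, beside 20.6% and 20.1% of all genes. The further receptor gene, Notch4, known from endothelium, had dim signals and differed by 0.23 ± 0.08 (limma adjusted p = 0.0457), with overlapping groups. That call was lost when array 1 or 3 of the empty vector was dropped (limma adjusted p = 0.136 and 0.134) or globin-labelled array 1, 2 or 3 (limma adjusted p = 0.105, 0.0513 and 0.110), and under quantile normalisation (adjusted p = 0.118), and its second probe set did not pass.

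Among 5 further ligand genes 2 rose and 1 fell. Dlk1, an imprinted Delta-like gene whose product lacks the domain that activates Notch, read 11.60, 11.76 and 11.80 in the empty vector arrays and 12.21, 12.07, 12.11 and 12.01 in the globin-labelled arrays, a rise of 0.38 ± 0.06 (limma adjusted p = 0.00130). The only Dlk1 probe set used targets more than 1 transcript by its suffix. Dlk2, a relative of Dlk1, rose by 0.26 ± 0.05 (limma adjusted p = 0.00229). Dner, a neuronal Delta-like protein, fell by 0.23 on the log2 scale (standard error 0.05, limma adjusted p = 0.00342), and by 0.33 on its other probe set. On that other probe set the groups overlapped, and its suffix marks probes that may also bind other transcripts. On the brightest probe sets of Dlk1, Dlk2 and Dner the groups did not overlap. Dll3 and Dll4 did not pass, with 0.01 ± 0.04 and 0.04 ± 0.04.

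Glycosyltransferase genes of the receptor were higher in 3 of 5 cases. Mfng, a fringe enzyme that elongates O-fucose on the receptor and so tunes its response to Delta and Jagged ligands, read 9.04, 9.07 and 9.13 in the empty vector arrays and 9.96, 9.99, 9.96 and 9.86 in the globin-labelled arrays. The groups were 0.73 apart and the rise was 0.86 ± 0.05, or 1.82-fold (limma adjusted p = 1.36e-06), larger than that of any member. Lfng, another fringe gene, read 7.39, 7.17 and 7.15 against 7.64, 7.74, 7.86 and 7.94 and rose by 0.56 ± 0.08 (limma adjusted p = 6.48e-04), while on its dimmer probe set the difference was 0.03 ± 0.04, short of the threshold. Poglut1, the receptor's O-glucosyltransferase, rose by 0.33 ± 0.04 (limma adjusted p = 3.02e-04). The remaining fringe gene, Rfng, differed by 0.13 ± 0.05 (limma adjusted p = 0.0548), and the O-fucosyltransferase gene Pofut1 by -0.10 ± 0.05 (limma adjusted p = 0.150).

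Genes of ligand endocytosis and of receptor ubiquitination held the largest change of the list, with 3 of 10 higher and 2 lower. Neurl1a, a ubiquitin ligase that can drive endocytosis of ligands, read 9.36, 9.48 and 9.36 in the empty vector arrays and 10.76, 10.71, 10.57 and 10.66 in the globin-labelled arrays. Its brightest probe set rose by 1.28 ± 0.06, or 2.42-fold (limma adjusted p = 3.86e-07), 2 others rose by 0.64 ± 0.07 and 0.42 ± 0.07, and the dimmest did not pass, with 0.10 ± 0.07. The mind bomb ligases, which serve the same step, moved in opposite directions. Mib1 read 9.18, 9.05 and 9.28 against 8.86, 8.86, 8.63 and 8.73 and fell by 0.40 on the log2 scale (standard error 0.07, limma adjusted p = 0.00208). Mib2 rose by 0.32 ± 0.05 (limma adjusted p = 8.01e-04). The only Mib2 probe set used targets more than 1 transcript by its suffix. Dtx1, a deltex ligase that binds the receptor's intracellular domain, read 9.70, 9.81 and 9.83 against 10.42, 10.32, 10.29 and 10.33. It rose by 0.56 ± 0.05, or 1.47-fold (limma adjusted p = 2.91e-05). Numb, which antagonises Notch in dividing progenitors, differed by -0.04 ± 0.04 on its brightest probe set, and a dimmer one fell by 0.25 on the log2 scale (limma adjusted p = 0.0237).

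Among 7 protease genes 2 rose and 2 fell, with a median of -0.03. Adam10, the protease of the first ligand-induced cut, fell by 0.18 on the log2 scale (limma adjusted p = 0.0119) on its brightest probe set and by 0.34 and 0.32 on its others (limma adjusted p = 0.00251 and 0.00332). Ncstn, which encodes the nicastrin subunit of gamma-secretase, fell by 0.21 (limma adjusted p = 0.00199). Psen2, a catalytic subunit, rose by 0.17 ± 0.05 (limma adjusted p = 0.0146), though not when array 1 of the empty vector was dropped (limma adjusted p = 0.0514), and its other probe set did not pass. Furin, which cuts the receptor on its way to the surface, differed by 0.16 ± 0.06 with overlapping groups (limma adjusted p = 0.0473). That call was lost when array 1 or 3 of the empty vector was dropped (limma adjusted p = 0.157 and 0.0924) or globin-labelled array 1, 3 or 4 (limma adjusted p = 0.0993, 0.108 and 0.0997).

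Of 6 measured coactivator genes 1 rose and 1 fell. Maml1, a Mastermind protein of the complex with RBPJ, read 10.24, 10.21 and 10.24 in the empty vector arrays and 10.64, 10.61, 10.72 and 10.72 in the globin-labelled arrays. It rose by 0.44 ± 0.04, or 1.36-fold (limma adjusted p = 4.59e-05), and its other probe set by 0.30 ± 0.04. Kat2b, a histone acetyltransferase, fell by 0.24 on the log2 scale (limma adjusted p = 0.00239), and by 0.35 on its other probe set. Among 9 corepressor genes 1 rose and 3 fell. Hdac2, a histone deacetylase, rose by 0.40 ± 0.05 (limma adjusted p = 3.40e-04). Tle1 and Tle4, Groucho-type corepressors that HES proteins recruit, fell by 0.27 and 0.33 on the log2 scale (limma adjusted p = 9.28e-04 and 0.00472), and their other probe sets fell by 0.45 each. Ctbp2 fell by 0.22 (limma adjusted p = 0.0151), but lost its call when array 1 of the empty vector was dropped (limma adjusted p = 0.0600), and its other probe set did not pass.

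Among 7 other genes of the target families 2 rose and 1 fell. Nrarp, a Notch target that feeds back on the receptor's intracellular domain, read 8.42, 8.14 and 8.51 in the empty vector arrays and 8.80, 8.73, 8.72 and 8.72 in the globin-labelled arrays. It rose by 0.39 ± 0.08 (limma adjusted p = 0.00425), and its other probe set by 0.48 ± 0.07 (limma adjusted p = 6.38e-04). Hey2, a close relative of Hey1, fell from 4.66 to 4.32 (limma adjusted p = 0.00178), but the arrays' 10th percentiles, 5.36 to 5.44, were higher than these values, so the change is one of dim signal. Hes2 rose by 0.25 ± 0.07 from a dim 6.69 (limma adjusted p = 0.0222), a call lost when array 1 or 3 of the empty vector was dropped (limma adjusted p = 0.0871 and 0.0768) or globin-labelled array 1 (limma adjusted p = 0.0542) or under quantile normalisation (adjusted p = 0.0563). Hes5, the HES gene often read beside Hes1 in progenitors, did not pass, with 0.02 ± 0.07.

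Of 7 measured proneural genes, which HES proteins are known to repress, 2 rose and the others did not pass. Neurog2, a neurogenin that commits progenitors to a neuronal fate, read 6.49, 6.51 and 6.29 in the empty vector arrays and 7.58, 7.65, 7.41 and 7.45 in the globin-labelled arrays. The groups stood 0.90 apart, and the rise was 1.09 ± 0.07, or 2.14-fold in signal (limma adjusted p = 5.87e-06). Its empty vector values were dim, below the arrays' 25th percentiles of 6.78 to 6.86. Neurod1, a differentiation factor downstream of the neurogenins, read a dim 5.92, 5.95 and 6.04 against 6.32, 6.39, 6.48 and 6.50. It rose by 0.46 ± 0.06 (limma adjusted p = 1.89e-04), and its other probe set by 0.29 ± 0.09 (limma adjusted p = 0.0259). On that other probe set, dimmer still, the groups met at 5.89, the value of empty vector array 1 and of globin-labelled array 1. In these arrays signals of the repressor gene Hes1 and of the proneural genes Neurog2 and Neurod1 were all higher. Whether these rises are related was not tested.

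**Figure D4:**
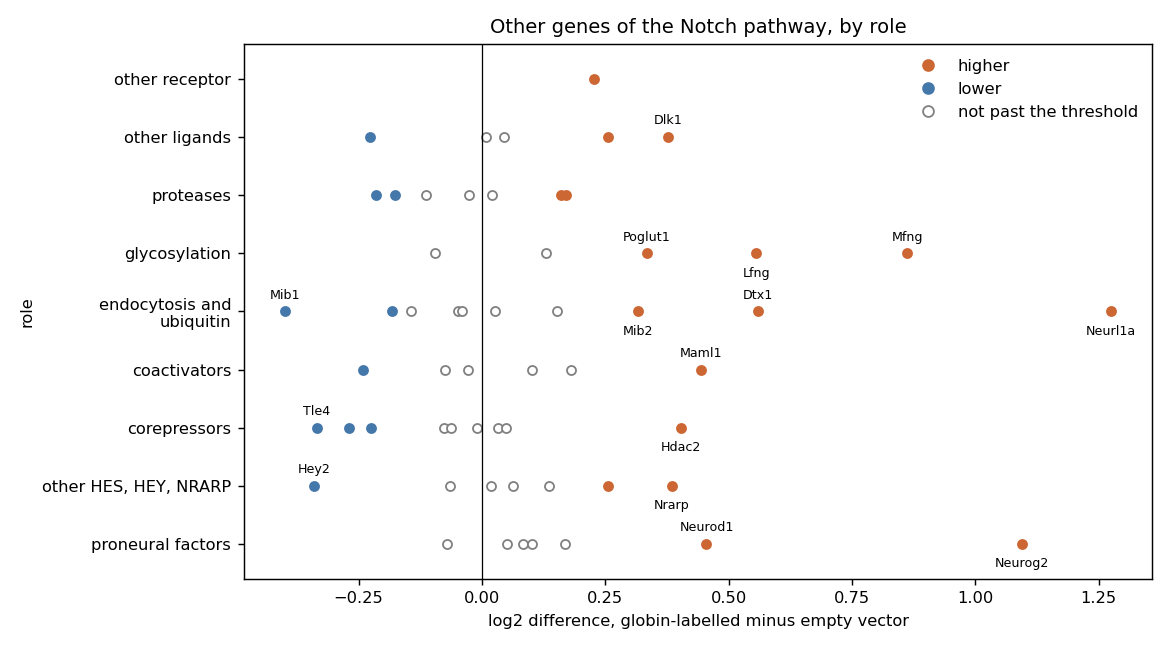
Log2 difference, globin-labelled minus empty vector, of 57 other pathway genes in 9 roles, each by its brightest probe set (filled, adjusted p under 0.05). Neurl1a, Neurog2 and Mfng lie farthest to the right, and Mib1, Hey2 and Tle4 farthest to the left.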

How the data were processed

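RNA of 7 samples was amplified, labelled with biotin and hybridised to 1 array each, per the labels' protocols. Per the submitters' processing notes the deposited values, on a log2 scale, are from RMA, whose software and version the sources used here do not give. RMA makes the arrays' distributions alike, so a shift shared by most transcripts cannot be seen. The log2 values were used as deposited. Arrays carry no read depth, and their number limits the precision.

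Of 22690 probe sets 64 controls were left out. The platform annotation gave 1 symbol for 20380 of the remaining 22626, several for 691 and none for 1555, and 0 symbols needed updating through RefSeq. Groups came from the sample titles. The fit used limma 3.58.1 in R 4.3.3 (lmFit, eBayes, group only, two-sided, 9.10 total degrees of freedom), with Benjamini-Hochberg adjustment over 22626 probe sets, a threshold of 0.05 and 95% intervals. The fit was tried on simulated data with independent normal noise and a small share of changed probe sets. That setting differs from these data, so the trial is no support for the calls. Genes were counted by the probe set of highest mean signal. Named were all member probe sets and, of the other pathway genes, up to 4 called per role by smallest p, or all called ones among receptors, ligands, targets and proneural factors. Values of other genes given as not passing were chosen after they were seen. The members and lists were chosen with earlier results of these data known. The alternatives were other array scalings, variance models, tests, filters and rules for a gene's probe set, the replicate number as a block, and leaving out arrays.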

Additional observations from a re-analysis of the deposited data

Results flagged for a closer look

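Among the 4 globin-labelled arrays, 43 named probe sets were searched for an array far from the other 3, and 2 had one, where chance marks about 1 in 20 groups. For Nrarp globin-labelled array 1 read 8.80 and the others 8.72 to 8.73, so that its gap took up 0.902 of the range. For Furin globin-labelled array 2 read 9.59 and the others 9.72 to 9.74, a gap of 0.899 of the range.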

How the results depend on the processing

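The count of changed member probe sets was between 7 and 9 under 16 alternatives (7 of the 13 kept without the dimmest 25%, otherwise of 17), that of member genes 5 or 6 under 18 (5 of the 8 kept without the dimmest 25%), and that of other pathway genes between 22 and 32. Without any 1 array it was 9 member probe sets, 6 member genes and 23 to 27 other pathway genes, with 7803 to 8271 probe sets called in all. Dropping array 1 of the empty vector together with array 4 of the globin-labelled group was chosen after seeing the data, and then 7 member probe sets and 7375 in all passed. The replicate number as a block, over replicates 1 to 3, gave 9 member probe sets, 6 member genes, 22 other pathway genes and 6337 probe sets in all. Deviations of like-numbered arrays from their group means correlated at -0.364, -0.299 and -0.145, so like numbers did not go with like deviations. Whether such arrays were handled together cannot be told from these values. Of the 9 pairs of family members 6 passed under each of 4 alternatives, and leaving out an array gives too few splits for that test to pass.

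Signs turned only among 4 member probe sets that did not pass under any setting. For Hes6 they were 0.014 and 0.017 on the brighter probe set (quantile normalisation and 75th percentile), 0.019 (75th percentile) and 0.025 (replicate block) on the other, and for Dll1 -0.0044 with the replicate block. With 1 array left out, Dll1 ran from -0.039 to 0.066, the dimmer Jag1 probe set from -0.036 to 0.084, and the Hes6 probe sets from -0.052 to 0.0088 and from -0.062 to 0.025. Of 412 values of the 26 other named genes under the alternatives, 30 lost their call, all of Notch4, Furin, Hes2, Ctbp2 and Psen2. Scaling moved the median of all probe sets by 0.04 at most. Signals in the dimmest 25%, among them those of Notch3, Jag1, Neurod1 and, in the empty vector arrays, Neurog2, limit what those genes can show.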

Other observations

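At 36.3% of the 22626 probe sets at least 2 of the 7 arrays held deposited values equal to the last digit, and at 1 probe set all 7 did. Among the 17 Notch pathway probe sets 7 had such a tie. The dimmer probe set of Notch2 read the same value, 6.87, in 4 arrays, empty vector arrays 1 and 2 and globin-labelled arrays 1 and 2. The part of such ties in the calls was not tested.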
